A study of Mus musculus with 18 samples.

Results

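Lum, Dcn, Tgfbi, Postn, Pdgfrb, Tagln, Acta2, Actc1, Myl4 and Fabp3 are genes commonly used to recognise fibroblasts, smooth muscle and early muscle cells (LUM, DCN, TGFBI, POSTN, PDGFRB, TAGLN, ACTA2, ACTC1, MYL4 and FABP3 for the human genes). These 10 genes, none of which encodes a collagen, were taken by symbol from the 31441 genes of the deposited expression table. Their levels were read in cells that had been steered toward midbrain dopamine neurons, where a stromal or muscle cell is not the intended product. Of the 10 genes, 9 passed the filter on dim probes. The exception was Postn, which was not above background in any of the 18 arrays.

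The cells came from mouse embryonic stem cells of strain J1 (mESC in the labels) in 3 transgenic lines, each with a bacterial artificial chromosome that places a fluorescent protein under the regulatory region of 1 gene. The lines were Hes5::GFP, Nurr1::GFP and Pitx3::YFP. Hes5 marks neural progenitors, Nurr1 (gene symbol Nr4a2) marks young dopamine neurons, and Pitx3 marks more mature ones. At days 14 to 15 of differentiation each line was sorted by fluorescence, which gave 6 groups of 3 arrays: Hes5::GFP+ and Hes5::GFP-, Nurr1::GFP+ and Nurr1::GFP-, and Pitx3::YFP+ and Pitx3::YFP-. The labels name no treatment or mutation that sets the groups apart beyond the reporter and its sort, and all 6 share the strain. They do not say whether a line is 1 clone. A fraction is defined by whether its cells made the reporter, so a negative fraction is a mixture of everything else in the dish, and a line and its day of sorting within that window cannot be told apart. The labels do not state that arrays with different numbers came from separate differentiations, so p-values measure only the spread between these arrays.

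The labels of 1 array, Hes5 negative replicate 2, contradict each other: by title and genotype it is GFP-, by source name GFP+. It was kept as negative, and the main values of the Hes5 sort are given with and without it. Median raw intensity lay between 40.6 and 60.2 over the 18 arrays, 33.5% to 37.4% of probes were above background, and a probe value averaged 42.8 to 44.2 beads. The reporter transcript followed the labels: EGFP averaged 13.63 ± 0.09 log2 intensity in Hes5 positive cells and 9.70 ± 1.33 in Hes5 negative cells, 11.55 ± 0.80 in Nurr1 positive and 8.04 ± 0.40 in Nurr1 negative cells, and 10.69 ± 0.63 in Pitx3 positive and 6.32 ± 0.23 in Pitx3 negative cells (SD, n = 3 each).

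Fibroblasts build and bind the collagen matrix around cells. Lumican and decorin, the products of Lum and Dcn, are small leucine-rich proteoglycans that sit on collagen fibrils and regulate their thickness. Tgfbi and Postn encode related secreted matrix proteins that bind collagen and integrins and are induced by TGF-beta. Pdgfrb encodes the receptor through which platelet-derived growth factor recruits pericytes, smooth muscle cells and fibroblasts. Acta2 encodes smooth muscle alpha-actin, and Tagln encodes transgelin (SM22-alpha), an actin-binding protein of smooth muscle. Actc1 encodes cardiac alpha-actin, Myl4 encodes the atrial and embryonic essential myosin light chain, and Fabp3 encodes the fatty acid binding protein of heart and skeletal muscle. Actc1, Acta2 and Tagln are also switched on in embryonic cells outside muscle, and many smooth muscle and cardiac genes carry a promoter element, the CArG box, that is bound by serum response factor (SRF).

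RefSeq promoter sequence (build GRCm38.p6, 250 bases before the annotated start to 50 bases after it) was read for 6 of the 10 genes. Pdgfrb was left out of this search. The first pair printed are the actin genes, chosen because they hold CArG or near-CArG boxes as defined below, so their matches are no evidence about the set. The second pair are Tgfbi and Fabp3, which had the lowest adjusted p-values of the set in the paired fit of the Hes5 sort. A CArG box was searched as a pair of C bases, 6 bases that are all A or T, and a pair of G bases, and a near-CArG box as the same with 1 of the 6 bases being C or G. The pattern reads the same on both strands, and no match overlapped another. Capitals mark these matches, and each sequence is written 5′ to 3′ on the gene's own strand.
Actc1, chr2:114052826-114053125, minus strand: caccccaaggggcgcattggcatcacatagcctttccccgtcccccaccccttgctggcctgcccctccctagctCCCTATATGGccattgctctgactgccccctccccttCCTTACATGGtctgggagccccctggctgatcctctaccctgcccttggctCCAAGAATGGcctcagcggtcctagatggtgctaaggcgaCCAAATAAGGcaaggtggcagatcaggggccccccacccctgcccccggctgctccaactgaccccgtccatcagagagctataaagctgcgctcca
Acta2, chr19:34255324-34255623, minus strand: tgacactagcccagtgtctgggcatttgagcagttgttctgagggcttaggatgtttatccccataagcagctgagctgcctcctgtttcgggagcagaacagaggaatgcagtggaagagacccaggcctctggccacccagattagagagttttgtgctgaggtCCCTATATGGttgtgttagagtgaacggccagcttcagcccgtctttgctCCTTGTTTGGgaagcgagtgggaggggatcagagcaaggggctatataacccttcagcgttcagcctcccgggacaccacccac
Tgfbi, chr13:56609336-56609635, plus strand: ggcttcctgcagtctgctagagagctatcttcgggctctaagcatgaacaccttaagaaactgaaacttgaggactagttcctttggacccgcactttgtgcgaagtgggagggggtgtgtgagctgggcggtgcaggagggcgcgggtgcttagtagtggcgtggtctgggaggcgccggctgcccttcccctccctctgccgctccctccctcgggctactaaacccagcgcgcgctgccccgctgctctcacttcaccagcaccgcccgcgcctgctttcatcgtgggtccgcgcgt
Fabp3, chr4:130308488-130308787, plus strand: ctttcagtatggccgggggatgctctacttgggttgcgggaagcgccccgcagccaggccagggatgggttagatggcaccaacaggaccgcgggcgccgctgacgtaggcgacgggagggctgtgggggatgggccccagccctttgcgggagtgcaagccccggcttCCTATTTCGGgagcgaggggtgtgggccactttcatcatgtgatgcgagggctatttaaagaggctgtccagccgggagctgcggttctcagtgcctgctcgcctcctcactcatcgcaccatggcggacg
The Actc1 promoter held 1 CArG box, CCAAATAAGG, which began 47 bases before the start, and 3 near-CArG boxes, CCCTATATGG, CCTTACATGG and CCAAGAATGG, which began 175, 138 and 87 bases before it. The Acta2 promoter held 2 near-CArG boxes, CCCTATATGG and CCTTGTTTGG, which began 84 and 34 bases before the start. The Fabp3 promoter held 1 near-CArG box, CCTATTTCGG, and the Tgfbi, Myl4 and Postn windows held no match. Of 32851 promoters of the same length, 1.63% held a CArG box, 9.98% held a CArG or near-CArG box, and 0.822% held at least 2, as both actin genes did. A match describes the letters in this window and was not tested as a binding site.

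Each gene was read by 1 probe as log2 intensity after background correction and quantile normalisation (neqc). The sort effect is the mean of the positive arrays minus the mean of the negative arrays, so a negative value means less signal in reporter-positive cells. It was tested with limma over all 13144 genes above background, with Benjamini-Hochberg adjustment over all of them and a threshold of 0.05, first in an unpaired fit of the 6 group means and then in a paired fit with the replicate number of each line as a block. In bulk samples such as these, fewer cells of a type and less RNA per cell cannot be told apart.

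The set as a whole leaned toward the reporter-negative cells, with the most negative median in the Hes5 line. In the Hes5 sort, 8 of the 9 genes were lower on average in positive cells, with a median sort effect of -1.72, against 0.03 over all genes. In 6 of the 9, Lum, Tgfbi, Tagln, Actc1, Myl4 and Fabp3, all 3 positive arrays lay below all 3 negative arrays, which 4.06% of all genes did, and 8 of the 9 were lower in all 3 pairs, as were 15.8% of all genes. The unpaired fit called none of the 9 (lowest adjusted p = 0.51) and 0.0152% of all genes, and 5 of the 9 had an unadjusted p under 0.05, against 6.64% of all genes. The paired fit called 4 of the 9, all lower (Tgfbi, Fabp3, Lum and Tagln), against 1.22% of all genes in either direction and 0.624% in the lower direction. Without Hes5 negative replicate 2, the array with the contradictory labels, the median of the set was -1.83, against 0.06 over all genes, and 8 of the 9 were lower. The same 6 genes then had all positive arrays below the 2 negative arrays left, as 13.8% of all genes did.

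The other lines leaned the same way with smaller medians and more overlap. In the Nurr1 sort, 8 of the 9 genes were lower on average in positive cells, with a median of -0.77, against -0.02 over all genes. No gene of the set separated the groups completely, whereas 11.4% of all genes lay lower without overlap, and 5 of the 9 were lower in all 3 pairs, against 29.8% of all genes. The unpaired fit called 0 of the 9 and 0.0228% of all genes, no gene of the set had an unadjusted p under 0.05, and the paired fit called 0 of the 9 (lowest adjusted p = 0.0821) and 0.746% of all genes. In the paired fit 3 of the 9 had an unadjusted p under 0.05, against 24.4% of all genes. In the Pitx3 sort, 7 of the 9 were lower on average, with a median of -0.52, against 0.01 over all genes, and Dcn alone separated the groups, as 7.69% of all genes did in the lower direction. Dcn, Pdgfrb and Acta2, 3 of the 9, were lower in all 3 pairs (31% of all genes), and Myl4 was higher in all 3 (30.7%). The unpaired fit called 0 of the 9 and 0.411% of all genes, 2 of the 9 had an unadjusted p under 0.05 (14.7% of all genes), and the paired fit called 2 of the 9 lower (Dcn and Pdgfrb), against 15% of all genes in either direction and 8.83% in the lower one. So many genes passed in the Pitx3 sort that 2 of 9 says little about the set there. In the Hes5 sort 4 of 9 stood against a much smaller share of all genes. The set was chosen with earlier results of these data known, so that contrast carries no test. The Hes5 count was also 0 in several of the alternatives given below.

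**Figure D1:**
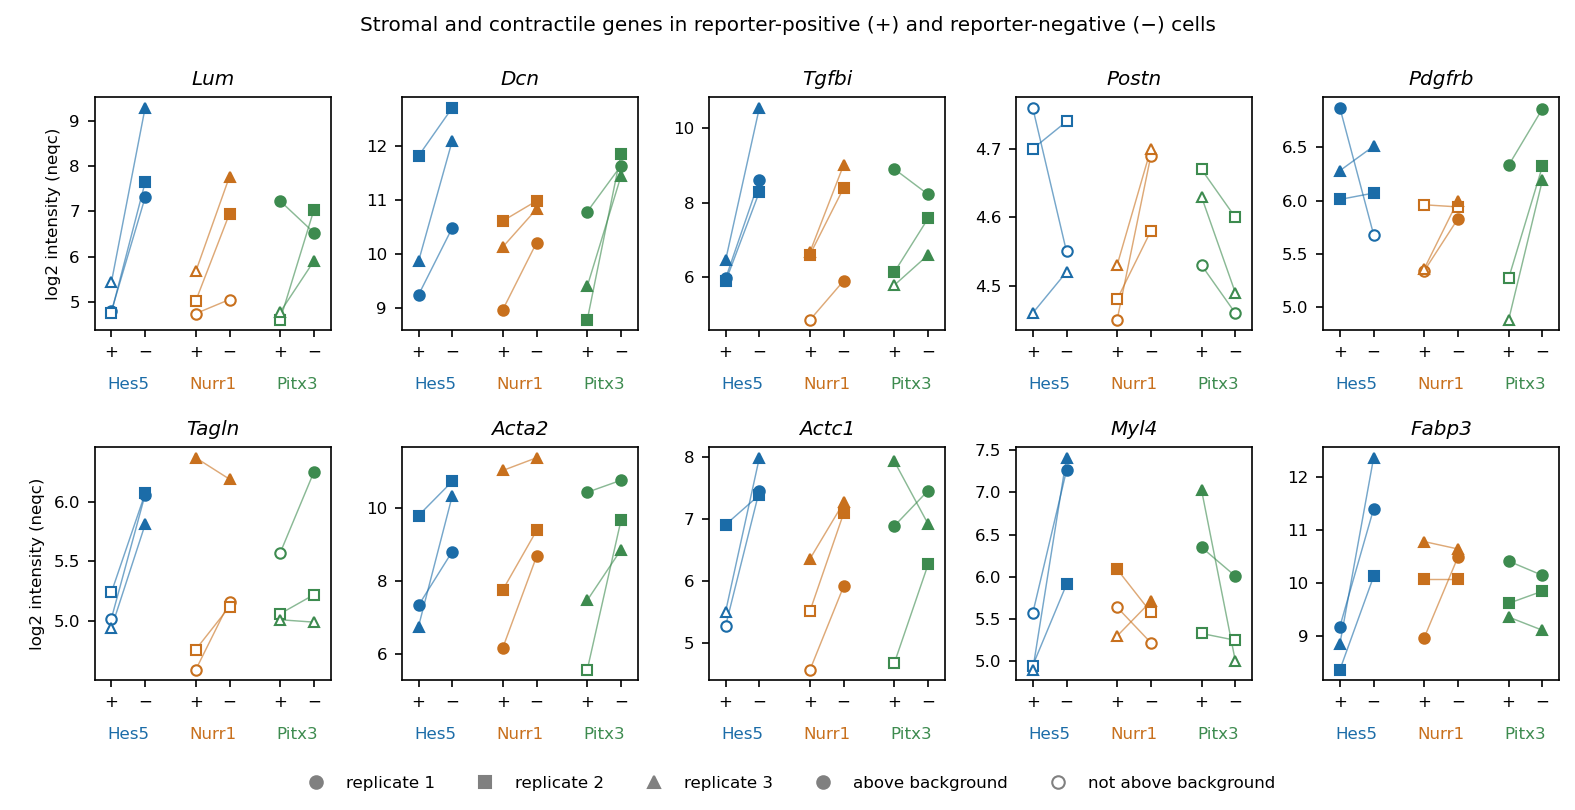
Log2 intensity (neqc) of each of the 10 genes in all 18 arrays, with reporter-positive cells (+) left of reporter-negative cells (−) in each line. Lines join arrays with the same replicate number, open symbols were not above background, and each panel has its own vertical axis. Lum, Tgfbi, Tagln, Actc1, Myl4 and Fabp3 have all Hes5 positive arrays below all Hes5 negative arrays, and all Postn points are open and lie between 4.45 and 4.76.

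Among the matrix genes, Lum and Tgfbi were the most reduced in Hes5 reporter-positive cells. Lum stood at 4.79, 4.76 and 5.43 log2 intensity in Hes5 positive replicates 1, 2 and 3, none above background, against 7.31, 7.64 and 9.29 in the Hes5 negative replicates, all above background. The groups did not overlap, and replicate 3 of the negative cells was the highest of all 18 arrays. Lum was at least 4.87-fold lower in the positive cells (measured means 4.99 ± 0.38 and 8.08 ± 1.06, SD, n = 3 each), and this fall passed in the paired fit (limma adjusted p = 0.0482) but not in the unpaired fit (adjusted p = 0.57). In the Nurr1 line it stood at 4.74, 5.02 and 5.67 in positive cells, none above background, against 5.05, 6.95 and 7.77 in negative cells, and was lower in all 3 pairs (paired adjusted p = 0.154). In the Pitx3 line it stood at 7.23, 4.60 and 4.77 in positive cells, against 6.53, 7.03 and 5.90 in negative cells. The first Pitx3 pair ran opposite to the other 2, and the sort effect of -0.95 (SE 0.55) did not pass (paired adjusted p = 0.259). The second Lum probe, above background in 6 arrays, was lower in positive cells too. Its sort effects were smaller, at -2.09, -0.73 and -0.5 in the Hes5, Nurr1 and Pitx3 lines.

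Tgfbi, the TGF-beta-induced matrix protein, followed Lum closely. It stood at 5.97, 5.89 and 6.46 in Hes5 positive cells, against 8.60, 8.29 and 10.54 in Hes5 negative cells, all above background. No arrays overlapped, and the gap between the highest positive and the lowest negative array was wider than the range of the positive arrays. Tgfbi fell by 3.03 on the log2 scale (SE 0.44), or 8.18-fold, in the paired fit (limma adjusted p = 0.0309), and the same difference had an SE of 0.90 and an adjusted p of 0.578 in the unpaired fit. In the Nurr1 line it stood at 4.86, 6.61 and 6.68 in positive cells, against 5.91, 8.40 and 9.02 in negative cells. Each positive array was below its partner, with differences of -1.05 to -2.35, while the groups overlapped because replicate 1 was low in both fractions (sort effect -1.73, SE 0.44, paired adjusted p = 0.0821). In the Pitx3 line it stood at 8.90, 6.14 and 5.79 in positive cells, against 8.22, 7.58 and 6.60 in negative cells, again with the first pair reversed (sort effect -0.52, SE 0.44, paired adjusted p = 0.431). The second Tgfbi probe, above background in 7 arrays, also gave smaller sort effects. They were -2.14, -1.13 and -0.31 in the Hes5, Nurr1 and Pitx3 lines.

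Dcn, the other proteoglycan gene, passed in the Pitx3 line and not in the Hes5 line, although the difference between its sort effects in those lines was small (-0.54, SE 0.55, paired adjusted p = 0.64). It was above background in all 18 arrays. It stood at 10.78, 8.78 and 9.40 in Pitx3 positive cells, against 11.63, 11.85 and 11.44 in Pitx3 negative cells. The negative arrays lay close together and all above the positive ones, and Dcn fell by 1.99 (SE 0.39), or 3.96-fold, in the paired fit (limma adjusted p = 0.0178, unpaired 0.212). In the Hes5 line it stood at 9.24, 11.81 and 9.86 in positive cells, against 10.48, 12.70 and 12.09 in negative cells. Replicate 2 was high in both fractions, so the groups overlapped although all 3 pairs were lower in positive cells (sort effect -1.45, SE 0.39, paired adjusted p = 0.0923). In the Nurr1 line it stood at 8.97, 10.61 and 10.13 in positive cells, against 10.21, 10.98 and 10.83 in negative cells, lower in each pair with differences of -0.37 to -1.24 (sort effect -0.77, SE 0.39, paired adjusted p = 0.257). The 3 Dcn probes above the filter were measured separately. The 2 brightest gave Hes5 sort effects of -1.45 and -1.44 and Pitx3 sort effects of -1.99 and -2.02, and the third, above background in 6 arrays, gave -1.05 and -1.29.

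Periostin, a matrix protein of activated fibroblasts and of bone and heart valve, left no measurable signal. Both Postn probes were below background in all 18 arrays, and the brighter one stayed between 4.45 and 4.76 log2 intensity, where the dimmest signals counted as above background were 5.70 to 6.08. No fold change is given for it.

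Pdgfrb was the only gene of the 9 that was not lower on average in Hes5 positive cells. It stood at 6.87, 6.01 and 6.28 in Hes5 positive cells, against 5.68, 6.07 and 6.51 in Hes5 negative cells, and the groups overlapped. The average difference of 0.30 (SE 0.27, 95% interval -0.31 to 0.92, paired adjusted p = 0.547) came from replicate 1, and without that pair it was -0.14. In the Pitx3 line it stood at 6.33, 5.27 and 4.88 in positive cells, against 6.86, 6.32 and 6.19 in negative cells. All 3 pairs were lower, with differences of -0.53 to -1.32, and Pdgfrb fell by 0.96 (SE 0.27) in the paired fit (limma adjusted p = 0.0449, unpaired 0.229), with 1 positive and all 3 negative arrays above background. In the Nurr1 line it stood at 5.34, 5.96 and 5.36 in positive cells, none above background, against 5.83, 5.94 and 6.0 in negative cells, with 2 above background, and the difference of -0.37 (SE 0.27) did not pass (paired adjusted p = 0.421).

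Of the smooth muscle genes, Acta2 was plainly present and very uneven between arrays of 1 fraction. It stood at 7.33, 9.80 and 6.75 in Hes5 positive cells, against 8.81, 10.74 and 10.34 in Hes5 negative cells. It stood at 6.17, 7.76 and 11.04 in Nurr1 positive cells, against 8.68, 9.39 and 11.39 in Nurr1 negative cells. It stood at 10.44, 5.56 and 7.47 in Pitx3 positive cells, of which the second was not above background, against 10.77, 9.67 and 8.86 in Pitx3 negative cells. Every one of the 9 pairs was lower in the positive cells, with differences of -0.33 to -4.11, yet the groups overlapped in all 3 lines. The sort effects of -2.0, -1.50 and -1.94 in the Hes5, Nurr1 and Pitx3 lines were nearly equal and had a paired SE of 0.72 each, and none passed (paired adjusted p = 0.159, 0.24 and 0.101). With the authors' deposited log2 values in the same fit, Acta2 passed in the Hes5 sort (-1.66, adjusted p = 0.0402) and the Pitx3 sort (-1.38, adjusted p = 0.0473). Both other Acta2 probes above the filter were lower in positive cells in all 3 lines too, with sort effects between -1.01 and -1.97.

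Tagln was near the floor of the arrays. It stood at 5.02, 5.24 and 4.94 in Hes5 positive cells, none above background, against 6.06, 6.07 and 5.81 in Hes5 negative cells, all above background. The pair differences, -1.04, -0.83 and -0.86, were the tightest of the set, and Tagln was at least 1.14-fold lower (measured means 5.07 ± 0.15 and 5.98 ± 0.15, SD, n = 3 each, limma paired adjusted p = 0.0493, unpaired 0.748). Outside the Hes5 negative cells it was above background in 3 of 15 arrays: Nurr1 positive replicate 3 at 6.37, Nurr1 negative replicate 3 at 6.19 and Pitx3 negative replicate 1 at 6.25. Each of those was also the array with the highest Acta2 of its fraction. The second Tagln probe was below background everywhere.

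Actc1, the cardiac actin gene, was higher in the negative cells of the Hes5 and Nurr1 lines in every pair. It stood at 5.28, 6.91 and 5.51 in Hes5 positive cells, 1 of 3 above background, against 7.46, 7.39 and 7.99 in Hes5 negative cells, all above background. The groups did not overlap, but the second pair differed by only -0.48 (sort effect -1.72, SE 0.48, paired adjusted p = 0.0988). It stood at 4.57, 5.52 and 6.36 in Nurr1 positive cells, against 5.92, 7.10 and 7.27 in Nurr1 negative cells (sort effect -1.28, SE 0.48, paired adjusted p = 0.152). It stood at 6.89, 4.68 and 7.93 in Pitx3 positive cells, against 7.46, 6.27 and 6.92 in Pitx3 negative cells, and the third Pitx3 pair ran the other way (sort effect -0.38, SE 0.48, paired adjusted p = 0.608).

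Myl4, the atrial and embryonic myosin light chain gene, split the lines. It stood at 5.57, 4.95 and 4.90 in Hes5 positive cells, none above background, against 7.26, 5.91 and 7.41 in Hes5 negative cells, all above background. It stood at 5.64, 6.09 and 5.30 in Nurr1 positive cells, against 5.22, 5.58 and 5.71 in Nurr1 negative cells. It stood at 6.35, 5.33 and 7.03 in Pitx3 positive cells, against 6.01, 5.25 and 5.01 in Pitx3 negative cells. Myl4 was therefore lower in all 3 Hes5 pairs without overlap, mixed in the Nurr1 line and higher in all 3 Pitx3 pairs with overlap. In the Nurr1 line only 1 of 3 positive and 1 of 3 negative arrays were above background. In the Pitx3 line 2 of 3 positive and 1 of 3 negative arrays were. The second Pitx3 pair differed by only 0.08, with neither array above background. The Hes5 sort effect of -1.72 (SE 0.39, at least 2.09-fold) just missed the threshold (paired adjusted p = 0.0676), and those of 0.17 in the Nurr1 line (SE 0.39, adjusted p = 0.809) and 0.81 in the Pitx3 line (SE 0.39, adjusted p = 0.184) did not pass.

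Fabp3, the muscle-type fatty acid carrier gene, was above background in all 18 arrays and differed between fractions in the Hes5 line. It stood at 9.17, 8.35 and 8.84 in Hes5 positive cells, against 11.40, 10.12 and 12.37 in Hes5 negative cells. The groups did not overlap, and Fabp3 fell by 2.51 (SE 0.37), or 5.69-fold, in the paired fit (limma adjusted p = 0.0309, unpaired 0.51, where it ranked 5 of all genes by p). It stood at 8.96, 10.08 and 10.78 in Nurr1 positive cells, against 10.49, 10.08 and 10.64 in Nurr1 negative cells. It stood at 10.41, 9.61 and 9.35 in Pitx3 positive cells, against 10.14, 9.84 and 9.10 in Pitx3 negative cells. Both of these lines overlapped, with Nurr1 pair differences of -1.53, 0 and 0.15. The differences were -0.46 in the Nurr1 sort (95% interval -1.31 to 0.39, paired adjusted p = 0.467) and 0.10 in the Pitx3 sort (95% interval -0.75 to 0.94, paired adjusted p = 0.881).

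**Figure D2:**
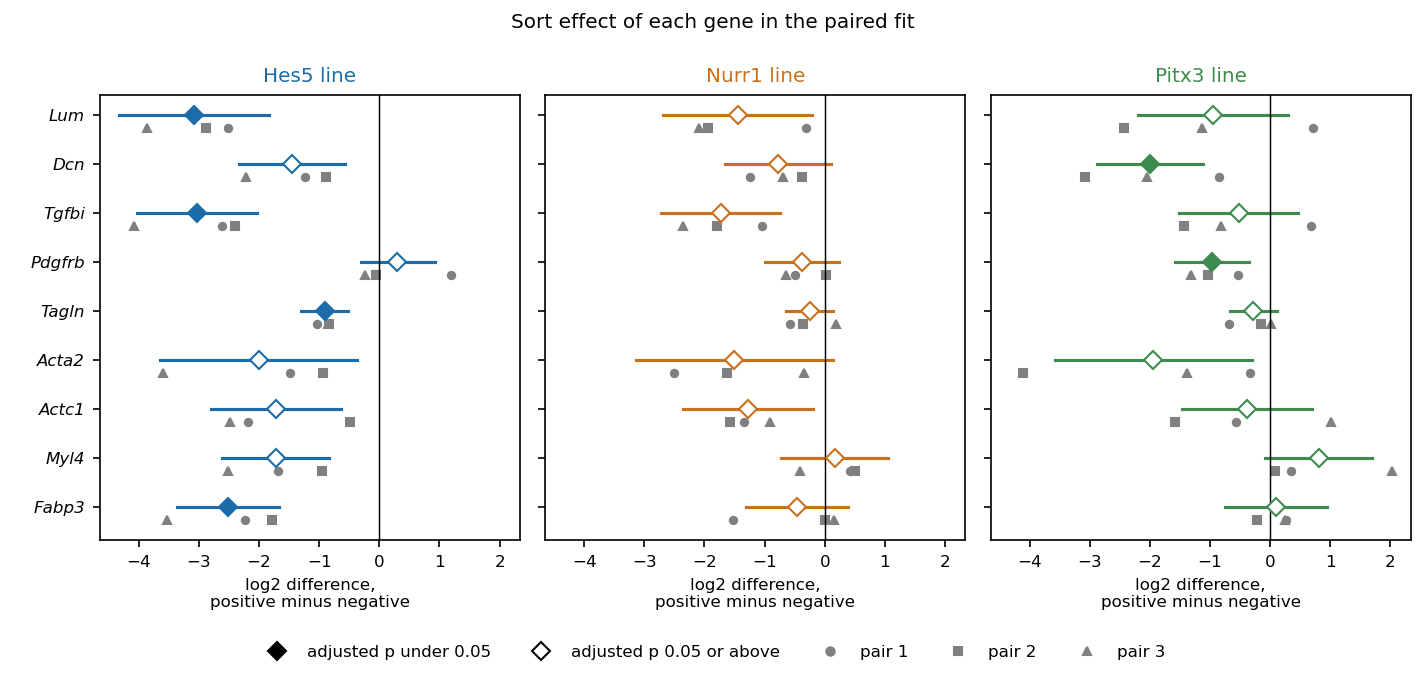
Sort effect of each of the 9 genes tested in the Hes5, Nurr1 and Pitx3 lines, as log2 difference of reporter-positive minus reporter-negative cells. Diamonds are the estimates and bars the 95% intervals of the paired fit, filled where the adjusted p was under 0.05, and grey symbols are the 3 pairs. In the Hes5 line 8 of 9 estimates lie left of 0 and 4 are filled, in the Nurr1 line none is filled, and in the Pitx3 line Dcn and Pdgfrb are filled.

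The calls in the Hes5 sort rested on few arrays. The paired fit called 6 of the 9 without Hes5 pair 2, which holds the array with the contradictory label: Lum, Tgfbi, Tagln and Fabp3 again, plus Actc1 (-2.33, adjusted p = 0.0306) and Myl4 (-2.10, adjusted p = 0.0321). That fit called 8.96% of all genes. Without Hes5 negative replicate 2 alone, the unpaired fit called Fabp3 (-3.10, adjusted p = 0.0199) and Myl4 (-2.19, adjusted p = 0.0313), and 0.761% of all genes. Dcn, which was not called, was then -0.98 in the Hes5 sort and Acta2 -1.62. With the deposited log2 values the paired fit called 6 of the 9 in the Hes5 sort and 2.25% of all genes, losing Tagln (-0.51, adjusted p = 0.367) and gaining Acta2, Actc1 (-1.24, adjusted p = 0.0391) and Myl4 (-1.43, adjusted p = 0.0186). The paired fit called 0 of the 9 without Hes5 pair 1 or 3, and likewise without Nurr1 pair 2 or 3 or Pitx3 pair 3, which leave the Hes5 arrays and estimates as they were and change the estimated spread. Over 13 alternatives of the paired fit, Tgfbi in the Hes5 sort remained called in 6, Lum and Fabp3 in 5 each and Tagln in 1. In the Pitx3 sort Dcn remained called in 10 of 13 and lost the call without Pitx3 pair 2 (-1.44, adjusted p = 0.123) or 3 (-1.96, adjusted p = 0.118). Pdgfrb remained called in 4 of 13 and lost the call without any 1 of the Pitx3 pairs (adjusted p = 0.0514 without pair 1, 0.206 without pair 2 and 0.237 without pair 3). With the deposited values Pdgfrb lost the call there too (-0.79, adjusted p = 0.0952).

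The order of the 6 fractions was alike for most of the set. Hes5 negative cells had the highest mean of the 6 for 8 of the 9 genes, and Pitx3 negative cells had it for Pdgfrb (6.46 ± 0.36). Without Hes5 negative replicate 2 they had it for 6 of the 9, and the highest mean was that of Pitx3 negative cells for Dcn and of Nurr1 negative cells for Acta2. The lowest mean was that of Hes5 positive cells for Fabp3, of Nurr1 positive cells for Tgfbi and Actc1, and of Pitx3 positive cells for Dcn and Acta2. The low end has no order for Lum, Tagln, Myl4 and Pdgfrb, since at least 1 positive fraction was below background in all its arrays: the Hes5 and Nurr1 positive cells for Lum, the Hes5 and Pitx3 positive cells for Tagln, the Hes5 positive cells for Myl4 and the Nurr1 positive cells for Pdgfrb. For Lum and Tgfbi the order ran Hes5 negative, Nurr1 negative, Pitx3 negative and Pitx3 positive cells from high to low, with the Hes5 and Nurr1 positive cells below. Neighbours in the order mostly did not differ beyond their spread. In Tgfbi, Tagln, Acta2 and Myl4 none of the 5 steps between neighbours exceeded the larger SD of its 2 fractions. In the other genes 1 of 5 did: Hes5 negative over Nurr1 negative cells for Lum (by 1.49), Pitx3 negative over Nurr1 negative for Dcn (0.97), Nurr1 negative over Nurr1 positive for Pdgfrb (0.37, with the positive cells below background), Hes5 negative over Pitx3 negative for Actc1 (0.73), and Pitx3 negative over Hes5 positive for Fabp3 (0.91).

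Fractions of different lines were then compared directly, positive with positive and negative with negative, in the unpaired fit, and none of the 9 genes passed in any of the 6 comparisons. Nurr1 negative cells were lower than Hes5 negative cells for all 9 genes on average (median -0.89, against 0.03 over all genes), with 0.0533% of all genes called and the smallest adjusted p of the set 0.756. Pitx3 negative cells were lower than Hes5 negative cells for 8 of 9 (median -0.73, against 0.03 over all genes, 0.0609% of all genes called). Fabp3 and Myl4 had the smallest adjusted p there, 0.6 each. Fabp3 averaged 9.69 ± 0.54 in Pitx3 negative cells and 11.30 ± 1.13 in Hes5 negative cells, and Myl4 averaged 5.42 ± 0.52 and 6.86 ± 0.83 in the same order (SD, n = 3 each). Without Hes5 negative replicate 2, this comparison called Fabp3 and Myl4 and 4.84% of all genes, and that of Nurr1 negative with Hes5 negative cells called Myl4 and 1.8% of all genes.

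Among positive fractions the set showed no common direction. Nurr1 positive cells were lower than Hes5 positive cells for 4 of 9 genes (median 0.15), with 0.411% of all genes called, and Pdgfrb had the smallest adjusted p, 0.312. Pitx3 positive cells were lower than Hes5 positive cells for 3 of 9 (median 0.54), where 4.43% of all genes were called. Pdgfrb averaged 5.49 ± 0.75 in Pitx3 positive cells and 6.39 ± 0.44 in Hes5 positive cells (adjusted p = 0.129), and Myl4 averaged 6.24 ± 0.85 and 5.14 ± 0.37 in the same order (adjusted p = 0.145). Between Pitx3 and Nurr1 fractions the medians were -0.03 for positive cells and -0.05 for negative cells, and 0.0152% of all genes were called in each. All these comparisons of lines share arrays with the sorts above and are not independent of them.

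The difference between sort effects was tested directly. In the unpaired fit none of the 9 genes passed for Pitx3 minus Hes5 (0.0533% of all genes called), Nurr1 minus Hes5 (0.00761%) or Pitx3 minus Nurr1 (0% of all genes, with 57 at an unadjusted p under 0.05). In the paired fit Fabp3 and Myl4 passed for Pitx3 minus Hes5, where 3.33% of all genes did. The Fabp3 sort effect was 0.10 in the Pitx3 line and -2.51 in the Hes5 line, a difference of 2.61 (SE 0.53, limma adjusted p = 0.0371). The Myl4 sort effect was 0.81 in the Pitx3 line and -1.72 in the Hes5 line, a difference of 2.53 (SE 0.56, limma adjusted p = 0.0455). Myl4 was below background in all 3 Hes5 positive arrays. With those arrays at the lowest signal counted as above background, its difference was 1.88. This is not a lower bound, since only 2 of 3 Pitx3 positive and 1 of 3 Pitx3 negative arrays were above background. Without Hes5 negative replicate 2, the unpaired difference was 3.01 for Myl4 (adjusted p = 0.0489) and 3.19 for Fabp3 (adjusted p = 0.0616), where 0.289% of all genes passed. Without Hes5 pair 2, the paired difference was 2.91 for Myl4 (adjusted p = 0.0307) and 2.97 for Fabp3 (adjusted p = 0.0246), where 5.26% of all genes passed. Tgfbi differed by 2.51 (SE 0.62, adjusted p = 0.061) and Lum by 2.13 (SE 0.78, adjusted p = 0.155), neither of which passed. The Lum value rests on dim signals, with 0 of 3 Hes5 positive and 1 of 3 Pitx3 positive arrays above background. Acta2 differed by 0.06 (SE 1.02, 95% interval -2.25 to 2.38), an interval too wide to show that it was alike in both lines. For Nurr1 minus Hes5 and Pitx3 minus Nurr1 the paired fit called 0% of all genes, with 2003 and 492 genes at an unadjusted p under 0.05.

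The genes did not all vary together. Over the 18 arrays the strongest pair was Lum and Tgfbi (Pearson's r = 0.96, and 0.93 after each array's deviation from its group mean was taken). Acta2 went with Tagln (0.80 and 0.78), Dcn (0.77 and 0.73) and Actc1 (0.71 and 0.70). Myl4 had little in common with Dcn (0.09 and -0.11) or Acta2 (0.15 and 0.09) and went more with Fabp3 (0.65 and 0.43). Within groups Pdgfrb stood nearest to Tgfbi (0.69) and Lum (0.59), and over all arrays these were 0.43 and 0.40. These correlations describe 18 arrays that share lines, pairs and 1 normalisation, and carry no test.

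**Figure D3:**
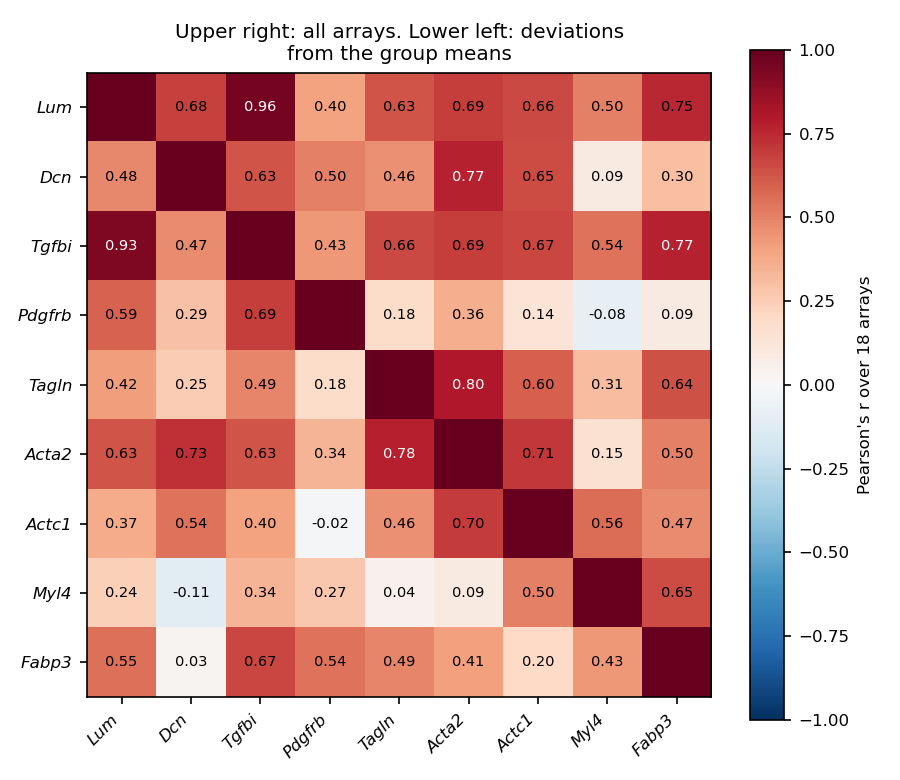
Pearson's r between each pair of the 9 genes over 18 arrays, above the diagonal from the log2 intensities and below it from the deviations from the group means. Lum and Tgfbi form the strongest pair at 0.96 above the diagonal and 0.93 below it, and the palest cells include Dcn with Myl4 (0.09 above the diagonal and -0.11 below it), Dcn with Fabp3 below it (0.03) and Pdgfrb with Actc1 below it (-0.02).

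By Pearson's r over the 18 arrays, the genes outside the set most like its mean standardised profile were Col1a1 (0.93) and Col3a1 (0.88), chains of fibrillar collagens, NPN1 as the deposited table names it (0.90), Cnn2 (0.89), a calponin that binds actin, Anpep (0.88), a cell surface aminopeptidase, Myl9 (0.88), the regulatory light chain of smooth muscle and nonmuscle myosin, Igfbp3 (0.88), which binds insulin-like growth factors, and Vstm4 (0.87). For single genes, Col1a1 was nearest to both Lum and Tgfbi (0.95 each), and Myl9 was nearest to both Acta2 (0.96) and Actc1 (0.81). Igf2, an insulin-like growth factor, was nearest to Dcn (0.90), Gng12, a G protein gamma subunit, to Pdgfrb (0.88), Fbxo6 to Tagln (0.84), and Akap12, a kinase anchoring protein, to Myl4 (0.82). Fabp3 stood apart: its nearest gene was Tfcp2l1 (0.92), a transcription factor of naive pluripotent cells.

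Other genes of the same cell types leaned the same way, mostly without passing. Of 30 other fibroblast and matrix genes, 22 were tested, and in positive cells 17 were lower in the Hes5 sort (median -0.66), 18 in the Nurr1 sort (-0.48) and 18 in the Pitx3 sort (-0.77). Calls in these lists are from the paired fit, which called 1.22% of all genes in the Hes5 sort (0.624% lower) and 15% in the Pitx3 sort (8.83% lower). In the Hes5 sort 1 of the 22 fell: Serpinf1, which encodes the secreted factor PEDF, averaged 8.35 ± 1.15 in positive and 9.72 ± 0.79 in negative cells (-1.36, SE 0.16, limma adjusted p = 0.0178). In the Pitx3 sort 4 of the 22 fell: Fstl1, a secreted glycoprotein gene (-1.47, adjusted p = 0.0194), Sparc, which encodes a collagen-binding protein (-2.25, adjusted p = 0.0283), Fbln2, a fibulin gene (-1.62, adjusted p = 0.0325), and Pcolce, an enhancer of collagen processing (-1.31, adjusted p = 0.0452). None of the 22 passed in the Nurr1 sort, and none of the lists described here had a gene called in the unpaired fit of any sort. These lists, like the set itself, were drawn up with results of these arrays known.

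Of 20 other smooth muscle contractile genes, 15 were tested and 14, 13 and 13 were lower in positive cells in the Hes5, Nurr1 and Pitx3 sorts (medians -0.68, -0.51 and -0.51). Tpm1, a tropomyosin gene, fell in the Hes5 sort (10.31 ± 0.43 in positive and 11.64 ± 0.45 in negative cells, SD, n = 3 each, limma paired adjusted p = 0.0464). Srf, which encodes the factor that binds CArG boxes, fell in the Pitx3 sort by 0.67 (adjusted p = 0.014), as did Tagln2, a widely expressed relative of Tagln (-1.74, adjusted p = 0.0218), and Smtn, which encodes smoothelin (-1.02, adjusted p = 0.0479). Those were 1 of 15 in the Hes5 sort and 3 of 15 in the Pitx3 sort. Cnn1, Lmod1 and Synpo2 were above background in no array and Myh11, the smooth muscle myosin heavy chain gene, in 1 of 18. Des, which encodes desmin, was above background in 5 arrays, Actg2, the enteric smooth muscle actin gene, in 7, Cald1, which encodes caldesmon, in 11, Myl9 and Cnn2 in 17, and Smtn, Tpm1, Tpm2 and Csrp1 in all 18.

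Heart and striated muscle genes were measured beside the cardiac genes of the set, and 11 of the 30 on the array under their names passed the filter, against 13144 of 31441 genes in all. Of 32 heart and striated muscle genes, 16 of the 30 on the array under that name were above background in no array, among them Myh6, Myh7, Myl7, Myl2, Nkx2-5, Tbx5 and Myod1, which encode the main myosins and the regulators of heart and skeletal muscle. Of the 11 tested, which include Actn2, above background in 15 arrays, and Tnnt1 and Tnnc1, in all 18, 10 were lower in positive cells in the Hes5 sort, 5 in the Nurr1 sort and 3 in the Pitx3 sort, with medians of -0.79, 0.05 and 0.28. In the paired fit of the Hes5 sort, Myl3, another essential light chain gene, was at least 2.45-fold lower (none of 3 positive and all 3 negative arrays above background, measured means 4.81 ± 0.30 and 7.09 ± 0.85, SD, n = 3 each, limma adjusted p = 0.0313) and Acta1, the skeletal actin gene, fell by 1.73 (adjusted p = 0.0458). In the Pitx3 sort Ckb, the creatine kinase of brain and other tissues, fell by 0.62 (adjusted p = 0.0281). Of the other fatty acid binding protein genes, Fabp1, Fabp2 and Fabp4 were above background in no array, and Fabp7, the form of neural progenitors, was at least 1.18-fold lower in the Pitx3 sort, with 0 of 3 positive and 2 of 3 negative arrays above background (measured means 4.83 and 6.23, limma adjusted p = 0.0274).

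Ligands and receptors upstream of the set were also measured. Of 18 TGF-beta ligands, receptors and induced genes, 13 were tested. In the paired fit of the Pitx3 sort 5 of the 13 fell, where 15% of all genes were called and 8.83% were called lower. They included Smad3, a signal transducer (-1.64, limma adjusted p = 0.019), Smad6, an inhibitory SMAD (-0.91, adjusted p = 0.0291), and Tgfbr2, a receptor (-1.71, adjusted p = 0.0318). The others were Ccn2 and Ccn1, secreted proteins induced by TGF-beta and SRF signalling (-2.07 and -2.15, adjusted p = 0.0356 each). None of the 13 passed in the Hes5 sort, where Tgfbi itself fell, or in the Nurr1 sort. On average 9, 10 and 11 of the 13 were lower in positive cells in the Hes5, Nurr1 and Pitx3 sorts (medians -0.35, -0.48 and -0.66). Of 6 genes for PDGF ligands and other receptors, 5 were tested and none passed in any sort, and 4, 5 and 5 were lower in positive cells in the Hes5, Nurr1 and Pitx3 sorts.

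Markers of other cell types moved with the set in some arrays. The mean log2 intensity of the 10 pluripotency genes tested was 6.01 to 6.74 in Hes5 positive cells and 6.27 to 9.70 in Hes5 negative cells, 5.76 to 6.04 in Nurr1 positive and 6.97 to 8.11 in Nurr1 negative cells, and 5.02 to 7.99 in Pitx3 positive and 5.57 to 7.57 in Pitx3 negative cells. All 10 were lower on average in positive cells in the Hes5 sort (median -2.29) and the Nurr1 sort (-1.58) and 3 of 10 in the Pitx3 sort (0.18), and none was called. Without Hes5 negative replicate 2 the Hes5 median of these 10 was -3.53, and that of the set was -1.83. The part of the pluripotency genes in the results above was not tested. In Hes5 negative replicate 2 the pluripotency mean was 6.27, close to its positive partner at 6.14, while the mean of the 9 stromal and contractile genes was 8.32, against 7.08 in the partner. Over the 18 arrays the pluripotency mean correlated with Fabp3 at r = 0.72, Tgfbi at 0.64, Myl4 at 0.63, Lum at 0.59, Actc1 at 0.52, Tagln at 0.49, Acta2 at 0.41, Pdgfrb at 0.30 and Dcn at 0.25, as a description. After each array's deviation from its group mean was taken, these were 0.64 for Fabp3 and Myl4, 0.43 for Pdgfrb, 0.37 for Tgfbi, 0.28 for Tagln, 0.26 for Actc1, 0.24 for Lum and Acta2, and -0.12 for Dcn.

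In the first Pitx3 pair both kinds of gene were high in both fractions. The pluripotency mean was 7.99 in the positive and 7.57 in the negative array, and the mean of the 9 genes was 8.10 and 8.21 in the same order, against 6.12 and 6.85 in the other 2 Pitx3 positive arrays. Without Pitx3 positive replicate 1, the unpaired fit called Dcn (-2.55, adjusted p = 0.0451) and Pdgfrb (-1.38, adjusted p = 0.0172) in the Pitx3 sort, along with 7.61% of all genes. Of the visceral endoderm markers, 6 were tested, Afp and Apoa1 were above background in no array, and Dab2 fell in the Hes5 sort (-1.57, adjusted p = 0.0485). Sox17 passed there too (measured means 4.61 in positive and 5.71 in negative cells, limma adjusted p = 0.0401), but only 1 of those 6 arrays was above background and no fold is given. Foxa2, also of this list, went the other way and rose in the Pitx3 sort (0.94, limma adjusted p = 0.0196). Of 12 pericyte and endothelial markers, 4 were tested and Anpep was at least 1.10-fold lower in the Hes5 sort, with 0 of 3 positive and 2 of 3 negative arrays above background (measured means 4.74 and 5.93, limma adjusted p = 0.0444), and Rgs5, Kcnj8 and Abcc9, which mark brain pericytes, were above background in no array. Of the meningeal and neural crest markers, 7 were tested and Zic1 and Sox10 fell in the Pitx3 sort (-1.99 and -2.21, adjusted p = 0.0178 and 0.0475), where 8.83% of all genes were called lower. In that sort 5 of the 7 were lower and 2 higher (median -0.29), and in the Nurr1 sort 4 were lower (-0.36). This list did not lean with the set in the Hes5 sort. There 4 of the 7 were higher and 3 lower (median 0.06), with Zic1 at 1.44 and Sox10 at 1.01, neither called. Of 6 early mesoderm markers tested none passed. In positive cells 5 of the 6 were lower in the Hes5 sort (median -0.99), 5 in the Nurr1 sort (-0.57) and 4 in the Pitx3 sort (-0.30). Their mean correlated with Tgfbi at 0.80 and Lum at 0.78 over the 18 arrays, and at 0.90 and 0.86 within groups, and their part in the results above was not tested. Without Hes5 pair 2, the 7 genes of these lists called in the Hes5 sort, Serpinf1, Tpm1, Myl3, Acta1, Anpep, Sox17 and Dab2, were called again. That fit called 8.96% of all genes, against 1.22% with all pairs, and the 7 were picked as already called. Their calls without Hes5 pair 1 or 3 are not given here.

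**Figure D4:**
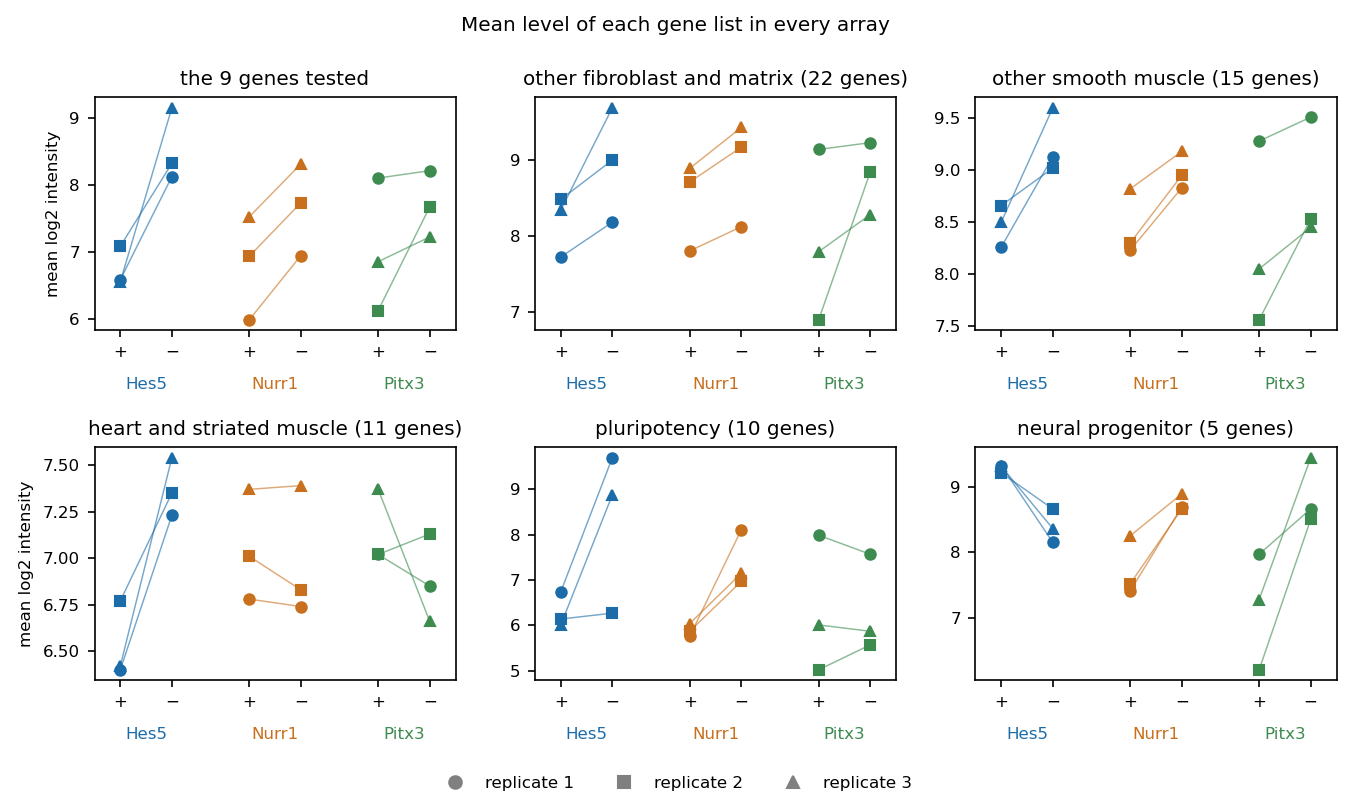
Mean log2 intensity of the 9 stromal and contractile genes tested and of 5 other lists in each of the 18 arrays, with reporter-positive cells (+) left of reporter-negative cells (−) and lines joining arrays of the same replicate number. The mean of the 9 genes lies lower in the positive array of all 9 pairs, and the pluripotency mean of Hes5 negative replicate 2 lies at 6.27, far below the other 2 Hes5 negative arrays.

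Neural genes were measured beside the set. The 5 neural progenitor genes tested were all higher on average in Hes5 positive cells (median 0.75) and all lower in Nurr1 positive (-1.13) and Pitx3 positive cells (-1.73), and Nes, Hes5, Sox2 and Fabp7 (at least 1.18-fold) were lower in the paired fit of the Pitx3 sort, 4 of 5 genes where 8.83% of all genes were called lower. Of 6 neuron genes tested, 5, 6 and 5 were higher on average in Hes5, Nurr1 and Pitx3 positive cells, and Tubb3, a neuronal tubulin gene, rose in the Pitx3 sort by 0.84 (adjusted p = 0.0199). Foxa2, a floor plate and endoderm gene, rose there by 0.94 (adjusted p = 0.0196).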

How the data were processed

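Total RNA from 18 sorted samples was labelled as biotin cRNA and hybridised to Illumina BeadArrays, per the labels' protocols. The deposited scanner tables give raw intensity, a detection p-value and the number of beads for each of 45281 probes, per the file headers. The tools the authors named, per the submitters' processing notes, were GenomeStudio and Partek. The deposited matrix holds log2 values for 31441 genes, and its scale was found by matching it to the scanner intensities. Aligner and genome build do not apply to these arrays, and 18 columns of per-sample values were not used.

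Probes carry no gene names in the scanner tables. A gene was tied to the 1 to 4 probes whose mean reproduced its deposited values in all arrays, which tied 31126 genes (99.0%) and left 315 untied. RefSeq gave a current symbol for 13415 names directly and for 6752 through a synonym, and 11274 were kept as deposited. Intensities were background-corrected, quantile-normalised and log2-transformed with neqc (offset 16) in limma 3.58.1 (R 4.3.3, with the data.table package of version 1.17.8). A probe was kept if its detection p was under 0.01 in at least 3 arrays (18737 probes, of which 837 had no gene), and the brightest kept probe stood for its gene (13144 genes). Levels of different probes were not compared.

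Two-sided moderated tests (lmFit, eBayes) used 6 group means (12 residual degrees of freedom). A second fit had the replicate number within each line as a block (6 residual degrees of freedom). The labels give these numbers without saying what they share. Deviations from the group means correlated at 0.43 to 0.77 in the 9 pairs of arrays with the same number in a line, and at -0.64 to 0.17 in the 18 pairs with different numbers, so the numbers were taken to pair the arrays. P-values were Benjamini-Hochberg adjusted over all 13144 genes, with a threshold of 0.05 and 95% intervals. Where a gene was not above background in any array of 1 group, the fold is a lower bound, "at least N-fold": the bright group's mean against the mean of, per array, the higher of the gene's own value and the lowest signal counted as above background. The test was checked on simulated data.

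Genes named outside the set are those called in a list, those of the lists above background in few or no arrays, and those with the highest Pearson's r to the set. The set and the lists were chosen with earlier results of these data known. Alternatives were quantile normalisation without background correction, the deposited log2 values, no filter on dim probes, the mean of the kept probes, each line alone, and leaving out each array or pair. Other software was Python 3.11.15, numpy 2.4.6, pandas 2.3.3, numba 0.67.0 and matplotlib 3.10.9. The number of arrays limits the precision.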

Additional observations from a re-analysis of the deposited data

Results flagged for a closer look

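The sort effects of Fabp3 and Myl4 differed between lines by a test of the difference itself, in the paired fit. The Fabp3 difference, Pitx3 sort minus Hes5 sort, was 2.61 (SE 0.53, limma adjusted p = 0.0371), and the Myl4 difference was 2.53 (SE 0.56, limma adjusted p = 0.0455), where 3.33% of all genes passed. Myl4 was below background in all 3 Hes5 positive arrays, so its difference rests on those values. The difference was 1.88 with them at the lowest signal counted as above background, which is not a lower bound. Only 2 of 3 Pitx3 positive and 1 of 3 Pitx3 negative arrays were above background for Myl4. In the unpaired fit the adjusted p was 0.225 for Fabp3 and 0.155 for Myl4. Over the 12 alternatives of the paired fit the Fabp3 difference ran from 2.10 to 2.97 and the Myl4 difference from 1.93 to 2.91, and each remained called in 4. The pluripotency mean, which was 6.27 to 9.70 in Hes5 negative cells and 5.57 to 7.57 in Pitx3 negative cells, moved with both genes over the arrays, and its part in these differences was not tested.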

How the results depend on the processing

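In the unpaired fit none of the 9 genes was called in any of the 12 comparisons. With the replicate block 4 were called in the Hes5 sort, 2 in the Pitx3 sort and 2 for Pitx3 minus Hes5, and the block changed no other count of calls. Leaving out 1 array at a time moved the unpaired counts within 0 to 2 for the Hes5 sort and for Pitx3 negative against Hes5 negative cells and within 0 to 1 for Nurr1 negative against Hes5 negative cells and Pitx3 minus Hes5, in each case through Hes5 negative replicate 2. It moved them within 0 to 2 for the Pitx3 sort and 0 to 1 for Pitx3 positive against Hes5 positive cells, through Pitx3 positive replicate 1. In the paired fit the Hes5 count was 0 with no filter on dim probes, 0 with the line alone, and 0 to 6 without 1 pair. The Nurr1 count was 1 with the deposited log2 values (Tgfbi, -1.43, adjusted p = 0.03), where 2.36% of all genes were called. It was 1 with the line alone (Actc1, -1.28, adjusted p = 0.0463). With the deposited values the Hes5 count was 6 (2.25% of all genes called), with Acta2, Actc1 and Myl4 gained and Tagln lost. The Pitx3 count was then 2 (8.03% of all genes called), with Acta2 gained and Pdgfrb lost. The Pitx3 count was 1 with no filter, 1 with the line alone and 0 to 2 without 1 pair. The Pitx3 minus Hes5 count was 4 with the deposited values, with Lum and Tgfbi gained, where 3.39% of all genes were called. It was 0 with no filter and 0 to 2 without 1 pair. With no filter more probes are tested, and with a line alone or without a pair fewer arrays are fitted. Signs that turned were all of uncalled values with 1 array or pair left out. In the Pitx3 sort Tgfbi ran from -1.50 to 0.05, Tagln from -0.53 to 0.10, Actc1 from -1.09 to 0.53 (paired -1.08 to 0.22) and Fabp3 from -0.21 (-0.20 in another setting) to 0.32. In the Nurr1 sort Tagln ran from -0.82 to 0.10 (0.07 in another setting), Myl4 from -0.03 to 0.36 and Fabp3 from -0.88 to 0.03 (paired -0.77 to 0.07). In the Hes5 sort Pdgfrb ran from -0.14 to 0.57 in the paired fit. The set's median sort effect was -1.43, -0.75 and -0.41 (Hes5, Nurr1, Pitx3) after quantile normalisation alone and -1.43, -0.73 and -0.45 in the deposited values. Low signal limits Lum, Tagln, Pdgfrb and Myl4, which were above background in 9, 6, 11 and 8 of 18 arrays.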
